A study of Mus musculus with 35 samples.

Results

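Transcripts of 8 genes that control the release of paused RNA polymerase II were followed from the mouse zygote to the 2-cell (2C) embryo, with and without injected Kdm5b mRNA. They were Larp7, Mepce and Hexim1 of the 7SK particle, Cdk9, Ccnt1 and Ccnt2 of the kinase P-TEFb, and Supt5 and Nelfa of the pausing complexes DSIF and NELF. The 8 genes were taken by symbol from the 24480 genes of the count table, and were picked as a group because of their levels in the same libraries. Their levels and changes are therefore given as descriptions, with no p-value, whereas other genes of the same pathway were tested. Where any of the 8 is said to be called or to pass the adjusted p, that too is a description. It is no test of that gene and lends its difference no support. The lists of those other genes were also chosen with earlier results of these data known, and their p-values carry that choice.

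P-TEFb is a kinase made of CDK9 and a T-type cyclin. It phosphorylates DSIF, NELF and the tail of RNA polymerase II, which lets a polymerase that has paused shortly after initiation move on into the gene. Much of P-TEFb is held inactive in a ribonucleoprotein built on the small nuclear RNA 7SK, in which MEPCE caps the RNA, LARP7 binds its end and protects it, and HEXIM1, once bound to the RNA, inhibits the kinase. In mouse embryos this machinery has to serve a genome that is nearly silent after fertilisation and is strongly activated during the 2C stage.

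In vivo-fertilised wild-type C57BL/6NRj embryos were injected into the cytoplasm with in vitro transcribed Kdm5b-yfp mRNA or with nuclease-free water, and total RNA of each embryo was sequenced by a stranded SMART-seq method. KDM5B removes methyl groups from lysine 4 of histone H3, and the design asks whether early loss of that mark changes transcripts. There were 10 water-injected and 10 Kdm5b-injected zygotes, collected 17 h after ovulation, and 9 water-injected and 6 Kdm5b-injected 2C samples, collected 5.5 to 8 h after division. The 2C embryos were grown from thawed zygotes that had been cryopreserved, and both of their cells were injected. Libraries of the 2 stages were prepared on separate days, and hence stage, cryopreservation and library day cannot be told apart. Of the 2C samples, 11 were single embryos and 4 were pools of single blastomeres taken from different embryos. The control was water and not another mRNA, so KDM5B and the mere presence of an injected mRNA cannot be told apart as sources of a difference. The labels call the samples biological replicates, and where embryos came from the same isolation the p-values measure the spread between samples only.

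Between 8705584 and 17797581 read pairs per library were assigned to genes. The Kdm5b transcript, which includes the injected mRNA, took 2.30 to 10.4% of the counts in Kdm5b-injected zygotes and 8.27 to 15.8% in Kdm5b-injected 2C embryos, against at most 0.0189% in water-injected samples, so all 16 injected libraries went with their labels. Summed over 11 measured 2-cell genes, the level ran from 10.3 to 52.7 CPM (counts-per-million scale, after TMM scaling) in water-injected zygotes and from 179 to 845 in water-injected 2C embryos, and 10 oocyte genes fell from a summed 5084 to 6695 to a summed 2806 to 4772. Markers of cumulus and granulosa cells summed to between 19.1 and 48.1 CPM in every group, with Cyp19a1 and Kitl as the most abundant, and of the 12 Amh and Inha had no read in any 2C library. The names of the 2C libraries carry index numbers, which were split here into 2 runs (U81 to U88 and U89 to U95); no label calls either run a batch. U81 to U88 held 3 water-injected and 5 Kdm5b-injected samples, and U89 to U95 held 6 water-injected and 1 Kdm5b-injected. The pools were U89, U90 and U91 with water and U88 with Kdm5b. Injection, pooling and index run were thus unevenly mixed, and values within U81 to U88 are given beside the results. CPM is a share of the RNA in a library, so a lower share and fewer molecules per embryo cannot be told apart.

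On GRCm38 the particle's genes lie at chr3:127536714-127553349 (Larp7, minus strand, 13 exons), chr5:137781906-137786701 (Mepce, minus, 4 exons) and chr11:103116325-103119725 (Hexim1, plus, 1 exon). Those of P-TEFb lie at chr2:32705782-32712784 (Cdk9, minus, 7 exons), chr15:98543211-98567636 (Ccnt1, minus, 9 exons) and chr1:127774164-127804837 (Ccnt2, plus, 9 exons). Supt5 lies at chr7:28314894-28338719 (minus, 30 exons) and Nelfa at chr5:33898179-33936258 (minus, 11 exons). No exon of the 8 genes overlapped an exon of another gene on its strand, so the stranded counts are not shared with a neighbour.

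The sequences that bear most on the results are the promoters of Hexim1, Cdk9, Larp7 and Supt5, whose estimates are described most fully, and the RNA that holds the 7SK particle together. Each promoter is given for 250 bases before and 50 after the start of the gene, from RefSeq (GRCm38.p6), on the strand of the gene. Of the 8 genes, 7 had a promoter in the table. Capitals mark matches, on either strand, to 6 short motifs. TATAAA is the TATA box and TATATAA a variant of it. The CCAAT box is named by its letters, and GGGCGG is the GC box. TGACGTCA is the cyclic AMP response element, and ATGGCGGC the core of a YY1 site. TATATAA shares letters with TATAAA only in part, and the motifs were picked with the sequences in view.
Hexim1, chr11:103116075-103116374, plus strand: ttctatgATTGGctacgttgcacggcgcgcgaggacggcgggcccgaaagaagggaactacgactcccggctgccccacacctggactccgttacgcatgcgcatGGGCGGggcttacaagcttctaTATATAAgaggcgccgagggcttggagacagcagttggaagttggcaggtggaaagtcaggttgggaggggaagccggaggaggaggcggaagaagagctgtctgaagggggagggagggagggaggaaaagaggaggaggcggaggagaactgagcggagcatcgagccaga
Cdk9, chr2:32712735-32713034, minus strand: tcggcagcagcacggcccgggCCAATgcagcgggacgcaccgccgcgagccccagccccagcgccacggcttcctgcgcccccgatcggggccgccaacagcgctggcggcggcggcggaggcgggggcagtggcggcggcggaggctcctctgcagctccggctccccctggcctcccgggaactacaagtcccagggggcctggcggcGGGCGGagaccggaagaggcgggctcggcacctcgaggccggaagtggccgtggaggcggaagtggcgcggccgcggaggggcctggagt
Larp7, chr3:127553300-127553599, minus strand: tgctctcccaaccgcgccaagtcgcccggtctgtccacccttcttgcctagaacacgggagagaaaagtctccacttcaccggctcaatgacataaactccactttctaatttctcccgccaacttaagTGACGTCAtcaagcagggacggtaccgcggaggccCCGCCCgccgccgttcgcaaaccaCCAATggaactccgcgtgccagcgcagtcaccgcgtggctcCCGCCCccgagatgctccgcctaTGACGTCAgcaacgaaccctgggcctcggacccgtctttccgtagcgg
Supt5, chr7:28338670-28338969, minus strand: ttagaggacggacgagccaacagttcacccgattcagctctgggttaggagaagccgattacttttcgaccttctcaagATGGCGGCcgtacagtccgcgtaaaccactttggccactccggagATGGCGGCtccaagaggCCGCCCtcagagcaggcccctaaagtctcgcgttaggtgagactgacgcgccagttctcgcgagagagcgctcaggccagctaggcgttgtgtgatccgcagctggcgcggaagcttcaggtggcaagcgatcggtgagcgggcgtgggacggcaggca

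Hexim1 had the only one of the 7 promoters with TATATAA, which 3.24% of all 32851 promoters in the table hold; its match began at base -123. Larp7 had TGACGTCA at bases -121 and 2, a motif in 1.79% of all promoters. Supt5 had ATGGCGGC at bases -171 and -126, a motif in 2.24% of all promoters that was also met in the Nelfa promoter. The GC box was in all 7 promoters and in 35.7% of all promoters, and CCAAT was in 4 of the 7 and in 37.4%. TATAAA was found in none of the 7, against 13.6% of all promoters. These are matches of letters and not shown to be bound.

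The 7SK RNA gene Rn7sk (chromosome 9, minus strand) gives a transcript of 331 bases in the GENCODE set. Its first 100 bases, which hold the part that HEXIM1 binds, are shown with each GATC in capitals, because the paired GATC motifs of this stem are the known HEXIM1 site. All 3 GATC of the transcript lie in this stretch.
7SK, bases 1 to 100: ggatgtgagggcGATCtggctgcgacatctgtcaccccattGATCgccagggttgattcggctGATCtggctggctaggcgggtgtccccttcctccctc

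Hexim1 was the gene that moved most. In water-injected zygotes it lay at 1.21 CPM at the lowest, 3.94 at the median and 8.16 at the highest, on 20 to 130 read pairs per library. In Kdm5b-injected zygotes these values were 1.48, 2.51 and 6.84 CPM. In water-injected 2C embryos they were 31.1, 46.8 and 87.8 CPM, on 270 to 878 read pairs, so that every 2C library was above every zygote library, as 6.64% of all genes tested were. In Kdm5b-injected 2C embryos they were 15.4, 27.7 and 41.0 CPM, again above every Kdm5b-injected zygote, as 12.2% of all genes were. The estimated change from zygote to 2C was 3.66 ± 0.32 (log2, standard error) in water-injected embryos, a 12.6-fold higher level, and 3.16 ± 0.30 in Kdm5b-injected embryos, an 8.95-fold higher level. Within 2C embryos Kdm5b-injected samples differed from water-injected ones by -0.93 ± 0.28 (log2), from a mean of 54.6 ± 22.4 CPM (SD, n = 9) to 28.3 ± 11.1 (SD, n = 6), and 3 of the 6 were below the lowest water-injected sample. Within U81 to U88 that difference was -1.19 ± 0.33. The groups overlapped over all libraries and within U81 to U88.

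**Figure D1:**
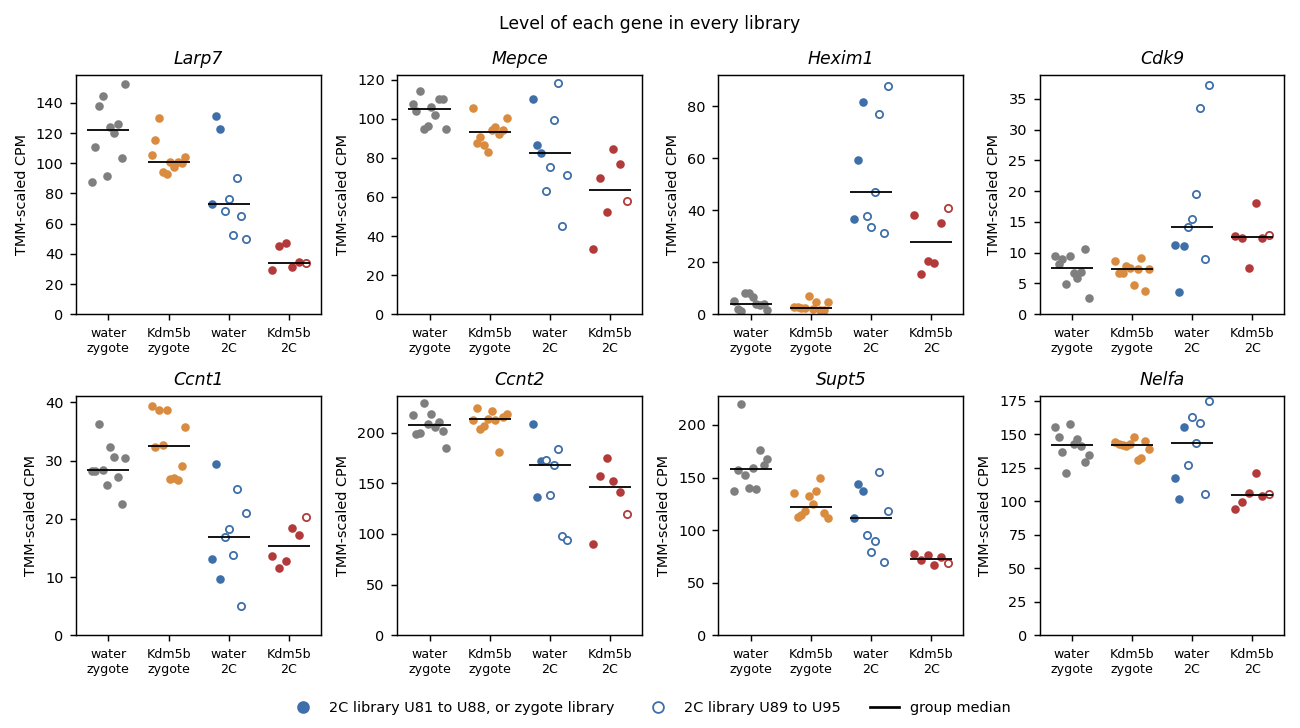
TMM-scaled CPM (vertical axis, from 0) of each of the 8 genes in the 35 libraries, by group (horizontal axis), with a point for each library, open for 2C libraries U89 to U95, and a bar at the group median. Hexim1 is between 15.4 and 87.8 in 2C libraries and at most 8.16 in zygotes, and the 6 Kdm5b-injected 2C libraries of Larp7 (29.0 to 46.9) lie below all 9 water-injected ones.

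Larp7 went the other way. Its lowest, median and highest levels were 87.3, 122 and 153 CPM in water-injected zygotes and 92.7, 101 and 130 CPM in Kdm5b-injected zygotes. In water-injected 2C embryos they were 49.995, 72.8 and 132 CPM, and in Kdm5b-injected 2C embryos 29.0, 34.1 and 46.9 CPM. The 2C groups did not overlap: all 6 Kdm5b-injected samples lay below the lowest water-injected one. Larp7 was 1 of 8 genes for which this held, and 0.147% of all genes tested were lower in this way, a figure that says nothing of the 8 genes since they were picked on these libraries. The difference was -1.13 ± 0.21 (log2), from 81.1 ± 28.8 CPM (SD, n = 9) to 36.8 ± 7.40 (SD, n = 6), a 2.19-fold lower level.

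The water-injected 2C libraries differed by index run for Larp7. Those in U81 to U88 had 72.8, 132 and 123 CPM, whereas the 6 in U89 to U95 had 49.995 to 90.2 CPM. The 5 Kdm5b-injected libraries in U81 to U88 had 29.0, 45.1, 46.9, 31.6 and 34.6 CPM, and the 1 in U89 to U95 had 33.7. Within U81 to U88 the Kdm5b-injected samples were thus below the water-injected ones, as for 4.96% of all genes in that direction. The difference there was -1.54 ± 0.24. In U89 to U95 the comparison rests on 1 Kdm5b-injected library and adds little. Over all libraries Larp7 fell outside the call used here, an adjusted p under 0.05 with a log2 change beyond 1, which 0.00817% of all genes tested met in the lower direction. It was called within U81 to U88, where 0.531% of all genes were. From zygote to 2C Larp7 changed by -0.53 ± 0.16 in water-injected and -1.49 ± 0.11 in Kdm5b-injected embryos, and the difference between these changes was -0.94 ± 0.21. With U81 to U88 alone the first was -0.14 ± 0.17, so the water-injected decrease was seen over all libraries and not within U81 to U88.

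Mepce changed less than the other 2 protein genes of the particle. Its median was 105 CPM in water-injected zygotes (94.6 to 114), 93.03 in Kdm5b-injected zygotes (83.1 to 106), 82.4 in water-injected 2C embryos (45.1 to 118) and 63.8 in Kdm5b-injected 2C embryos (33.2 to 84.5). Kdm5b-injected samples differed by -0.15 ± 0.05 (log2) in zygotes and by -0.41 ± 0.20 in 2C embryos, and the groups overlapped at both stages. The change from zygote to 2C was -0.29 ± 0.13 with water and -0.56 ± 0.14 with Kdm5b. With U81 to U88 alone it was -0.16 ± 0.11 and -0.55 ± 0.15, and the difference between injections in 2C embryos was -0.56 ± 0.26.

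7SK itself rose from zygote to 2C, in the same direction as Hexim1. In the gene table Rn7sk had a median of 1321 CPM in water-injected zygotes (1048 to 1638) and 3321 in water-injected 2C embryos (1894 to 4380). With Kdm5b the medians were 1392 (1028 to 1974) and 3293 (2522 to 5337). No 2C library overlapped with a zygote library of the same injection. The change was 1.28 ± 0.14 (log2) in water-injected embryos (edgeR, adjusted p = 1.83e-08, higher in 9 of 9 samples) and 1.35 ± 0.14 in Kdm5b-injected embryos (adjusted p = 1.86e-08, higher in 6 of 6). Such counts, here and below, are of 2C samples above or below the mean of the zygotes of the same injection. The 3 water-injected 2C libraries in U81 to U88 had only 1894 to 2216 CPM against 3241 to 4380 in the other 6, and with them alone the change was 0.64 ± 0.11, which still passed the adjusted p and not the fold limit. Between injections in 2C embryos Rn7sk differed by 0.19 ± 0.18 over all libraries and by 0.81 ± 0.21 within U81 to U88, where the 5 Kdm5b-injected libraries had 2522 to 5337 CPM and lay above the 3 water-injected ones, and neither passed the adjusted p. 7SK has many near-identical copies in the genome and read pairs that map to several places were left out of the gene table, so its level is uncertain. The authors' separate table of repeat families, which has a 7SK entry, gave a mean 2.42-fold higher in 2C embryos with water and 2.53-fold higher with Kdm5b, against 2.38-fold and 2.52-fold from the gene table. Both come from the same libraries and were scaled by the same library sizes, so the repeat entry is no independent check. Its mean with water was 3004 CPM in the 2C libraries U81 to U88, against 1947 in zygotes.

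Cdk9, the kinase subunit of P-TEFb, was the other gene with a higher level at the 2C stage. Its lowest, median and highest levels were 2.55, 7.52 and 10.7 CPM in water-injected zygotes and 3.71, 7.29 and 9.08 in Kdm5b-injected zygotes, on 41 to 171 read pairs. In water-injected 2C embryos they were 3.67, 14.2 and 37.2 CPM, the widest spread of the 8 genes relative to the mean, and in Kdm5b-injected 2C embryos 7.57, 12.6 and 18.1. The estimate was 1.26 ± 0.32 (log2) with water, with 7 of 9 2C samples above every zygote, and 0.88 ± 0.21 with Kdm5b, with 5 of 6 above. The first rested on the libraries U89 to U95: the 3 water-injected libraries in U81 to U88 had 11.3, 3.67 and 11.0 CPM, the 6 others 8.99 to 37.2, and with U81 to U88 alone the estimate was 0.23 ± 0.39. The comparison of Kdm5b with water in 2C embryos had no stable sign, at -0.42 ± 0.37 over all libraries and 0.55 ± 0.47 within U81 to U88. In zygotes it was -0.07 ± 0.20.

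The cyclin partners were lower at the 2C stage. Ccnt1 had a median of 28.3 CPM in water-injected zygotes (22.6 to 36.4), 32.6 in Kdm5b-injected zygotes (26.6 to 39.4), 16.9 in water-injected 2C embryos (4.95 to 29.5) and 15.4 in Kdm5b-injected 2C embryos (11.6 to 20.3). The changes from zygote to 2C were -0.74 ± 0.22 (log2) with water and -1.05 ± 0.15 with Kdm5b, and in the latter all 6 2C samples lay below every zygote. Ccnt2, the more abundant cyclin, had medians of 207 CPM (184 to 230), 213 (181 to 224), 168 (94.1 to 208) and 147 (90.1 to 175) in the same order of groups, with changes of -0.42 ± 0.12 and -0.59 ± 0.10. Injection made little difference to either: Ccnt1 differed by 0.18 ± 0.09 in zygotes and -0.10 ± 0.30 in 2C embryos, and Ccnt2 by 0.03 ± 0.05 and -0.12 ± 0.17. With U81 to U88 alone the 2C differences were -0.25 ± 0.40 and -0.27 ± 0.21. The stage changes were then -0.73 ± 0.25 with water and -1.14 ± 0.15 with Kdm5b for Ccnt1, and -0.27 ± 0.10 and -0.55 ± 0.11 for Ccnt2.

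Supt5, the large subunit of DSIF, had a lower median in Kdm5b-injected samples at both stages, as had the 3 genes of the 7SK particle and Cdk9. In zygotes its lowest, median and highest levels were 137, 158 and 220 CPM with water and 111, 122 and 150 with Kdm5b, and 8 of the 10 Kdm5b-injected zygotes lay below the lowest water-injected one. In 2C embryos they were 69.5, 112 and 156 CPM with water and 66.4, 72.7 and 77.4 with Kdm5b, and 2 of the 6 lay below the lowest water-injected one. The estimates were -0.35 ± 0.07 (log2) in zygotes and -0.61 ± 0.16 in 2C embryos. Supt5 was the 1 member with an adjusted p under 0.05 in zygotes, as were 0.117% of all genes tested in that direction, and it kept it in 6 of 20 fits that each left out 1 sample, with estimates from -0.39 to -0.29. Within U81 to U88 the water-injected 2C libraries had 112, 144 and 137 CPM and the Kdm5b-injected ones 66.4 to 77.4, with no overlap, as for 4.96% of all genes in that direction. The difference was -0.84 ± 0.18 and passed the adjusted p there, as did 0.813% of all genes. From zygote to 2C it changed by -0.51 ± 0.13 with water and -0.78 ± 0.09 with Kdm5b, and with U81 to U88 alone by -0.30 ± 0.13, which did not pass the adjusted p, and -0.77 ± 0.09.

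Nelfa, a subunit of NELF, held the most even level of the 8, with a root mean square deviation of 0.22 (log2 CPM) over the 35 libraries. Its median was 142 CPM in water-injected zygotes (121 to 157), 142 in Kdm5b-injected zygotes (130 to 148) and 143 in water-injected 2C embryos (102 to 175). In Kdm5b-injected 2C embryos it was 105 CPM (94.2 to 121), below every Kdm5b-injected zygote. This held for 5 of the 8 genes (Larp7, Ccnt1, Ccnt2, Supt5 and Nelfa) and for 16.4% of all genes. The estimates were 0.00 ± 0.05 (log2) for Kdm5b in zygotes, 0.00 ± 0.10 for the 2C stage with water, -0.39 ± 0.14 for Kdm5b in 2C embryos and -0.41 ± 0.07 for the 2C stage with Kdm5b. With U81 to U88 alone the last 3 were -0.18 ± 0.11, -0.25 ± 0.19 and -0.42 ± 0.08.

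**Figure D2:**
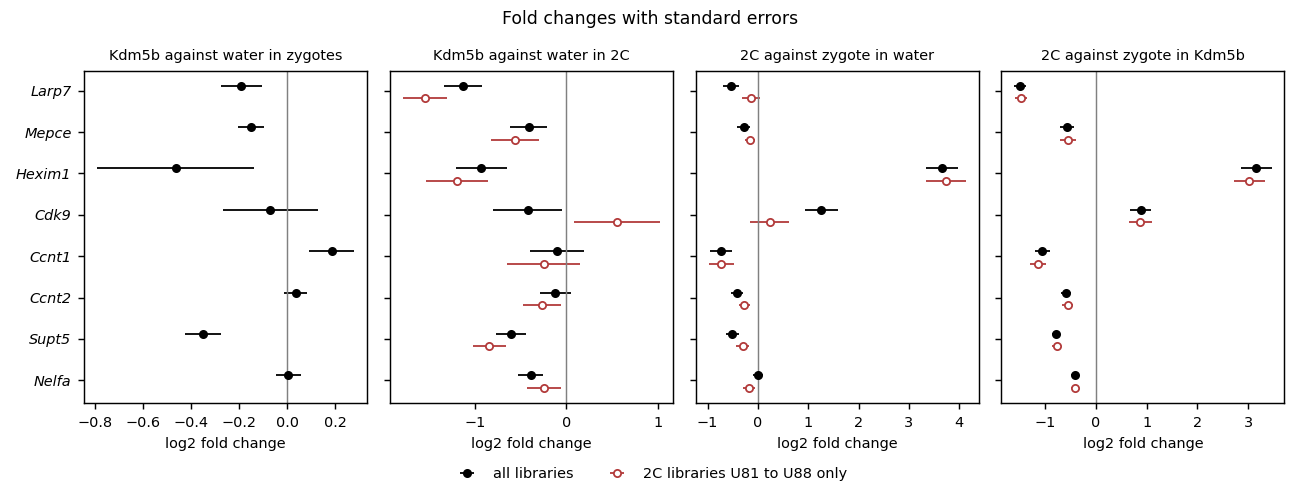
Log2 fold changes (horizontal axes, on a scale of their own in each panel) of the 8 genes in 4 comparisons, with lines of 1 standard error either way, from all libraries (filled) and with 2C libraries U81 to U88 alone (open). Hexim1 has the largest estimates in both stage comparisons (3.66 and 3.16), all 8 estimates for Kdm5b in 2C embryos are below 0 with all libraries, and that of Cdk9 moves to 0.55 within U81 to U88.

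Counted over the 8 genes, Kdm5b injection gave no call in zygotes, where 0.00838% of all genes tested were called higher and 0% lower, and none in 2C embryos, where 0% were called higher and 0.00817% lower. The median log2 change of the 8 was -0.11 in zygotes, against 0.01 over all genes, and -0.42 in 2C embryos, against -0.00. From zygote to 2C with water, 2 were called higher (Hexim1 and Cdk9), as were 9.2% of all genes, and 0 lower, against 13%. On the adjusted p alone 2 were higher and 4 lower, against 26.8% and 25.4% of all genes. With Kdm5b, 1 was called higher (Hexim1), against 10.5%, and 2 lower (Larp7 and Ccnt1), against 16%. On the adjusted p alone 2 were higher and 6 lower, against 29.3% and 29.5%. The difference between the stage changes of the 2 injections was not past an adjusted p of 0.05 for any of the 8, as for 0.109% of all genes it was. Within U81 to U88 it was for 2, Larp7 at -1.37 ± 0.20 and Supt5 at -0.51 ± 0.15, where 6.54% of all genes passed. These comparisons share groups: the water-injected 2C samples stand in 2 of the 4 comparisons, as do those of every other group.

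**Figure D3:**
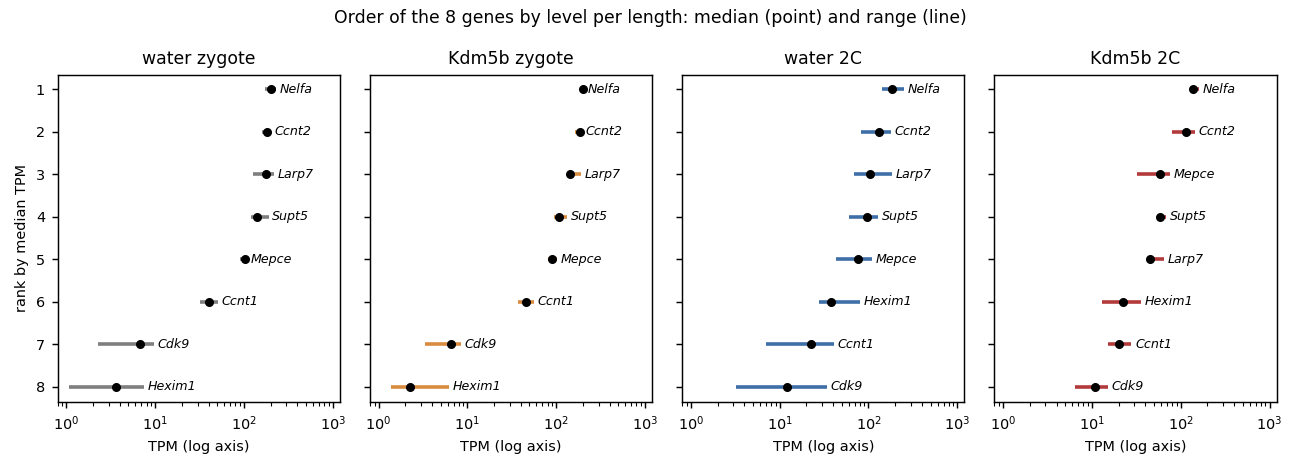
TPM (transcripts-per-million scale, a level per transcript length, on a horizontal log axis) of the 8 genes in each of the 4 groups, ordered by median (vertical axis, rank 1 highest), with a point at the median and a line over the range. Hexim1 is last of the 8 in zygotes (3.59 and 2.28 TPM) and the sixth in 2C embryos (38.3 and 22.3), while Nelfa and Ccnt2 lead in every group.

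Compared per length, in TPM, the genes spanned a wide range. In water-injected zygotes Nelfa led with a median of 199 TPM, followed by Ccnt2 at 180, Larp7 at 177, Supt5 at 140, Mepce at 103, Ccnt1 at 40.5, Cdk9 at 6.82 and Hexim1 at 3.59. The ranges of neighbours overlapped from Nelfa down to Supt5 and again between Cdk9 and Hexim1, and were apart from Supt5 to Mepce, Mepce to Ccnt1 and Ccnt1 to Cdk9. In Kdm5b-injected zygotes the order was the same, but Larp7 at 144 and Supt5 at 107 TPM no longer overlapped, while Supt5 and Mepce did. In water-injected 2C embryos Hexim1 had passed Ccnt1 and Cdk9, with medians of 38.3, 22.4 and 12.0 TPM, and all neighbours overlapped. In Kdm5b-injected 2C embryos Larp7 was the fifth at 45.2 TPM, behind Mepce at 58.7 and Supt5 at 57.98, which it overlapped. The kinase subunit was thus the scarce partner of P-TEFb by transcript in every group, below both cyclins at the median.

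Ratios within a library do not depend on its depth or scaling. The ratio of Hexim1 to Cdk9 in TPM had a median of 0.548 in water-injected zygotes (0.136 to 1.64) and 2.65 in water-injected 2C embryos (2.18 to 16.1), with no overlap. With Kdm5b the medians were 0.393 (0.163 to 0.899) and 2.74 (1.08 to 3.16), again with no overlap. Within U81 to U88 the 2C medians were 7.35 (3.22 to 16.1) with water and 2.67 (1.08 to 2.98) with Kdm5b. These ranges, of 3 and 5 libraries, did not overlap. Hexim2, a second inhibitor gene, does not enter this ratio. By median it was above Hexim1 in zygotes, at 40.1 TPM with water and 37.5 with Kdm5b. In 2C embryos it was below Hexim1, at 11.2 and 7.82 TPM. The ratio therefore does not stand for all inhibitor transcripts. Hexim1 to Larp7 went from a median of 0.0221 to 0.343 with water and from 0.0150 to 0.511 with Kdm5b. Larp7 to Mepce was 1.73 in water-injected zygotes, 1.62 in Kdm5b-injected zygotes, 1.52 in water-injected 2C embryos (0.790 to 2.26) and 0.917 in Kdm5b-injected 2C embryos (0.558 to 1.34), and the 2C groups overlapped. Supt5 to Nelfa was 0.727 and 0.517 in the zygote groups and 0.463 and 0.439 in the 2C groups. In U81 to U88 alone its 2C medians were 0.586 (0.543 to 0.870) with water and 0.441 (0.338 to 0.506) with Kdm5b, without overlap. Larp7 to Mepce was 2.22 (0.984 to 2.26) and 0.968 (0.558 to 1.34) there, with overlap. Hexim1 to Larp7 was 0.312 and 0.389 there, also with overlap.

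**Figure D4:**
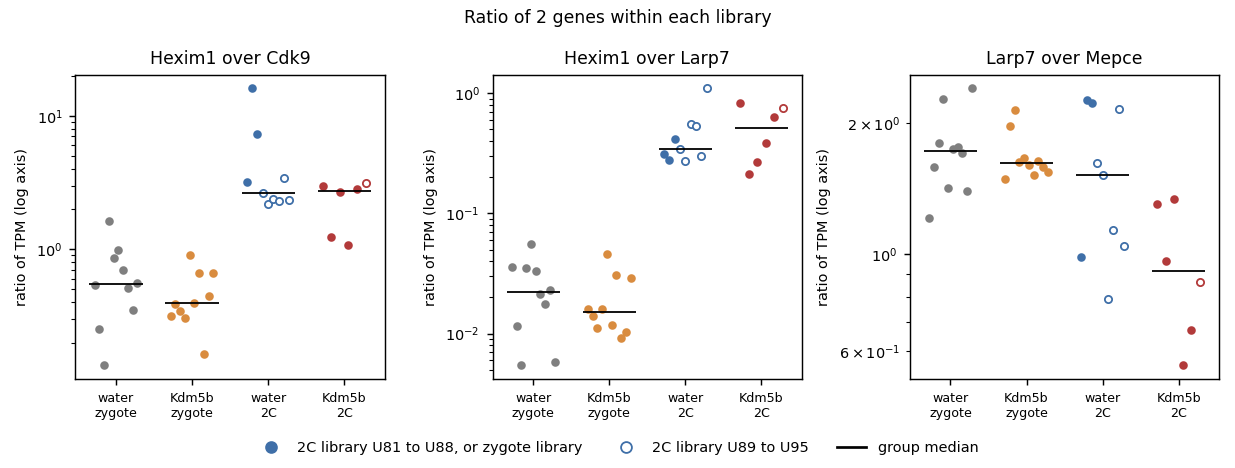
Ratio of the TPM of 2 genes in each library (vertical log axes) by group (horizontal axes), with a point for each library, open for 2C libraries U89 to U95, and a bar at the median. Hexim1 over Cdk9 is at least 1.08 in 2C embryos, and Larp7 over Mepce is lowest in the Kdm5b-injected 2C embryos, with a median of 0.917.

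The other 51 pathway genes were placed in 5 lists by role, and 50 were tested. Neither injection comparison called any of them: 0 passed the adjusted p in zygotes and 0 in 2C embryos with edgeR, with 6 and 4 at an unadjusted p under 0.05. From zygote to 2C with water 5 were called higher and 11 lower, and with Kdm5b 4 higher and 15 lower. Of all genes tested, 9.2% were called higher and 13% lower with water, and 10.5% and 16% with Kdm5b. The same shares stand beside the stage calls of each list below. The median of the 50 was -0.06 and -0.30 (log2), against 0.02 and 0.01 over all genes. With DESeq2, Supt6 and Iws1 passed the adjusted p for Kdm5b in zygotes and Rtf1 in 2C embryos. In other edgeR fits of Kdm5b in 2C embryos, up to 4 genes passed it, all lower: Rtf1 in 4 of these fits, and Ctr9, Ddx21, Ppm1g or Supt16 in 1 or 2.

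Among the 7SK and pausing partners, the second inhibitor Hexim2 moved against Hexim1. It fell from zygote to 2C by 1.42 ± 0.20 on the log2 scale with water (adjusted p = 1.06e-06, lower in 9 of 9) and by 2.02 ± 0.22 with Kdm5b (adjusted p = 3.01e-08, lower in 6 of 6). Hexim2 stood at 26.7 ± 3.77 CPM (SD, n = 10) in water-injected zygotes and at 9.75 ± 4.13 (SD, n = 9) in 2C embryos. The NELF subunits Nelfe and Nelfcd also fell, unlike Nelfa, by 1.56 ± 0.19 (adjusted p = 1.62e-07) and 1.28 ± 0.16 (adjusted p = 3.51e-07) with water, and with Kdm5b they changed by -1.78 ± 0.19 and -1.56 ± 0.25. Nelfb and Supt4a, the small subunit of DSIF, did not pass with water, and Supt4a has a near-identical copy that could take its reads. In all, 1 of 6 rose and 3 fell in both stage comparisons. The smallest p for Kdm5b in 2C embryos was that of Hexim2, at -0.70 ± 0.35 (adjusted p = 0.552).

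In the list of P-TEFb recruiters and the super elongation complex, 1 gene was called higher and 1 lower with water, and 1 and 2 with Kdm5b, of 12 tested. Mllt1, a chromatin-reading subunit, rose by 1.12 ± 0.28 with water (adjusted p = 0.00138, higher in 8 of 9) and 1.12 ± 0.21 with Kdm5b (adjusted p = 8.59e-05, higher in 6 of 6). Ell3, an elongation factor of the ELL family, fell by 1.37 ± 0.38 with water (adjusted p = 0.00355) and changed by -1.08 ± 0.28 with Kdm5b (adjusted p = 0.00213). Ddx21, a helicase known to free P-TEFb from 7SK, changed by -0.97 ± 0.13 with water (adjusted p = 6.01e-07, short of the fold limit) and by -1.65 ± 0.13 with Kdm5b (adjusted p = 1.89e-10), in the latter from 75.4 ± 10.5 CPM (SD, n = 10) to 23.7 ± 5.57 (SD, n = 6).

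Of 14 factors that act after pause release, none was called higher. Leo1, a subunit of the PAF complex, fell by 1.53 ± 0.18 with water (adjusted p = 1.04e-07) and 1.46 ± 0.19 with Kdm5b (adjusted p = 4.98e-07). Paf1 and the histone chaperone Supt16 were called lower with Kdm5b only, at -1.36 ± 0.17 (adjusted p = 1.78e-07) and -1.20 ± 0.11 (adjusted p = 1.92e-09), though with water both also passed the adjusted p below the fold limit and over all libraries the difference between the injections did not pass. The smallest p for Kdm5b in 2C embryos was that of Rtf1, of the same complex, at -0.71 ± 0.21 (adjusted p = 0.277). It was 204 ± 86.5 CPM (SD, n = 9) with water and 124 ± 20.2 (SD, n = 6) with Kdm5b. In zygotes it was Supt6 at -0.23 ± 0.06 (adjusted p = 0.131).

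The kinase of initiation, which phosphorylates the polymerase tail before P-TEFb does, fell in all 3 subunits. These, Cdk7, Ccnh and Mnat1, were called lower in both stage comparisons, 3 of the 6 genes of their list. Mnat1 changed most, by -2.31 ± 0.27 with water (adjusted p = 8.87e-08) and -2.10 ± 0.23 with Kdm5b (adjusted p = 2.51e-08). Cdk7 changed by -1.41 ± 0.16 (adjusted p = 8.03e-08) and -1.80 ± 0.13 (adjusted p = 5.71e-11), and Ccnh by -1.98 ± 0.33 (adjusted p = 1.68e-05) and -1.68 ± 0.28 (adjusted p = 1.78e-05). Each was below the zygote mean in 9 of 9 and in 6 of 6 2C samples.

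The 12 subunits of RNA polymerase II split. With water, Polr2f, Polr2j and Polr2a rose, by 1.30 ± 0.16, 1.24 ± 0.16 and 1.21 ± 0.15 (adjusted p = 1.84e-07, 5.22e-07 and 1.48e-07), and 3 fell, among them Polr2k at -2.81 ± 0.45 (adjusted p = 1.03e-05) and Polr2d at -2.24 ± 0.14 (adjusted p = 2.79e-12). Polr2k had only 2 to 39 read pairs in the water-injected 2C libraries. Polr2a, which encodes the subunit whose tail P-TEFb phosphorylates, went from 56.9 ± 9.22 CPM (SD, n = 10) to 129 ± 37.7 (SD, n = 9). With Kdm5b 2 rose and 4 fell, and the 4 that fell were Polr2k, Polr2d, Polr2l and Polr2b. Polr2b, the second-largest subunit, changed there by -1.46 ± 0.17 (adjusted p = 5.87e-08). Its median was lower at the 2C stage with water too, at 31.3 TPM (20.2 to 67.9) against 80.5 (72.4 to 103) in zygotes.

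**Figure D5:**
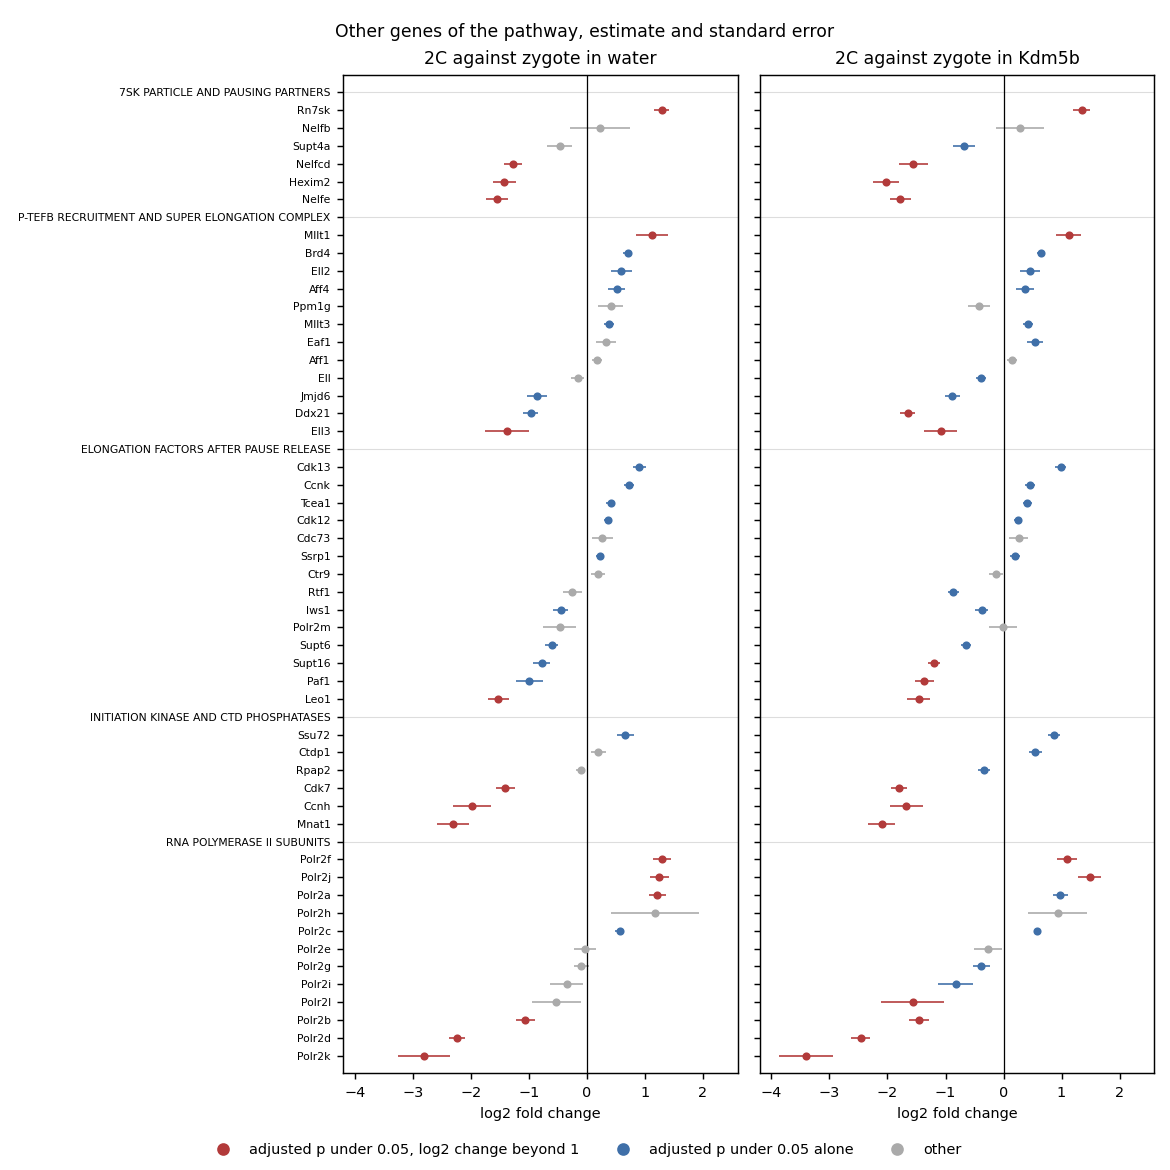
Log2 fold change from zygote to 2C (horizontal axes) of the 50 tested pathway genes (vertical axis, grouped by list) with water (left) and with Kdm5b (right), with lines of 1 standard error either way. Red points passed an adjusted p of 0.05 and the log2 limit of 1, blue points the adjusted p alone: 16 are red with water and 19 with Kdm5b.

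Last, the genes with the most similar profile over the 35 libraries were listed for each of the 8, out of 13778, by the root mean square difference of log2 CPM after each gene was centred. All libraries and thus the stage difference enter this measure, and it says nothing of shared control. For Hexim1 they were Mak16 (0.63), Xpnpep1 (0.67) and Limch1 (0.72), against a root mean square of 1.91 for Hexim1 itself. For Larp7 they were Psmd4 (0.25), Snw1 (0.26) and Wdr43 (0.26), against 0.66, and for Supt5 Gtpbp4 (0.23), Supt6 (0.24) and Hpf1 (0.25), against 0.45. The nearest were Zfp758 for Cdk9 (0.48), Mtf2 for Ccnt1 (0.33), Stard13 for Ccnt2 (0.16) and Vps26a for Nelfa (0.15). No gene of the 8 was among the 3 nearest of another, and Supt6 was the 1 pathway gene met in these lists.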

How the data were processed

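Embryo RNA was made into stranded total RNA libraries and sequenced in pairs. Per the labels and the study's methods, the authors trimmed reads with fastp 0.21.0, aligned them with STAR 2.7.3a to GRCm38 and counted pairs per gene with featureCounts 1.5.1 on the sense strand, without pairs that map to several places. The deposited gene table holds whole-number counts, and a second deposited table holds estimated counts per repeat family, of which only the 7SK entry was used.

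Here the Kdm5b entry was removed, since the injected mRNA fills it. Genes passed edgeR's filterByExpr with a minimum count of 10, counts were scaled by TMM, and only the groups compared entered each fit in edgeR 4.0.16 (quasi-likelihood, 2-sided, Benjamini-Hochberg over all genes tested) in R 4.3.3. A gene was called at an adjusted p under 0.05 with a log2 change beyond 1 either way. Errors on log2 values are standard errors. The difference between stage changes was fitted on all 35 samples, and called at the adjusted p. All 8 members passed the filter in every comparison. TPM was computed from the counts and the summed exon length of each gene that was deposited with them, without the Kdm5b entry.

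The members and the gene lists were chosen with earlier results of these data known, so members get no p. For other genes, up to 5 called per list and comparison by size of change were named, or the 1 with the smallest p; Supt4a, Nelfb, Iws1, Ctr9 and Ppm1g, and genes passing only in other fits, were named after their values were seen. Alternatives were DESeq2 1.42.0 (test, or size factors), other filters, the Kdm5b entry kept, the adjusted p alone, 1 fit of all samples, index run or replicate number as a term, single 2C embryos, 2C libraries U81 to U88, and each sample left out. In simulated data with 200 genes changed by 1.5 (log2), 91% were called for Kdm5b in zygotes, 59% for Kdm5b in 2C embryos, 71.5% for stage with water and 81% for stage with Kdm5b. Same-numbered samples did not deviate together (correlations of -0.185 to 0.102), so numbers pair no samples. No 2 libraries agreed within sampling noise. The profile nearest to that of Mepce is not reported here.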

Additional observations from a re-analysis of the deposited data

Results flagged for a closer look

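The level of each of the 8 genes was searched for a sample far from the rest of its group in 32 groups, and 2 were found, where chance gives about 1 in 20. Ccnt2 was lowest in Kdm5b-injected zygote replicate 8, at 181 CPM, with the next sample at 204. Supt5 was highest in water-injected zygote replicate 3, at 220 CPM, with the next at 176.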

How the results depend on the processing

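Among the 8 genes, no call changed sign. Of 384 log2 values refitted under other settings, 371 stayed within 1 SD of the replicates and 13 moved further. On the adjusted p alone the members passing rose from 0 to 1 for Kdm5b in zygotes, from 2 to 6 for stage with water and from 3 to 8 for stage with Kdm5b, and the pathway genes from 16 to 33 and from 19 to 42 in the stage comparisons. For Kdm5b in 2C embryos, 1 member (Larp7) in place of 0 was called with the DESeq2 test, no filter, a mean of 50 counts, all 35 samples in 1 fit, the index run as a term or U81 to U88 only, and 1 pathway gene (Rtf1, at -1.22 ± 0.22) with U81 to U88 only. Other members passed the adjusted p alone in this comparison. These were Hexim1 (-0.94) and Supt5 (-0.62) with the DESeq2 test, and Supt5 (-0.62) and Nelfa (-0.40) with all 35 samples in 1 fit. Supt5 also passed it with the index run as a term (-0.73) and with U81 to U88 only (-0.84). With U81 to U88 only, 1 member in place of 2 was called for stage with water, without Cdk9. For stage with Kdm5b the Ccnt1 call was lost with DESeq2 size factors (-0.996) and with the DESeq2 test (-0.997). For the difference between stage changes, 1 member (Larp7) passed with DESeq2 size factors, the DESeq2 test or single 2C embryos and 2 with U81 to U88, and 1 pathway gene (Ddx21) passed with the DESeq2 test and 5 with U81 to U88 (Ddx21, Ell, Hexim2, Rtf1 and Supt16, which were named after their values were seen). The cause was not tested. Shares of all genes are given only for the main fits and, within U81 to U88, for Kdm5b in 2C embryos and the difference between stage changes. Counts under the other settings, here and below, are not set against all genes. They do not measure how firm a call is.

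With each sample left out in turn, members called ranged from 0 to 0 for Kdm5b in zygotes, from 0 to 1 for Kdm5b in 2C embryos (Larp7, without water-injected 2C replicate 6 or 9), from 2 to 2 for stage with water and from 2 to 3 for stage with Kdm5b (Ccnt1 was lost without Kdm5b-injected 2C replicate 2). Pathway genes called ranged from 0 to 0, 0 to 0, 15 to 18 and 16 to 21. The pairs of same-numbered samples were not shown to be paired. The fit with the replicate block called 0 members for Kdm5b in zygotes, 1 for Kdm5b in 2C embryos (Larp7), 1 for stage with water and 3 for stage with Kdm5b, and 0, 0, 16 and 22 pathway genes. Low counts limit Hexim1 and Cdk9 in zygotes. They also limit the falls of Polr2k (2 to 39 read pairs in 2C libraries with water, 0 to 19 with Kdm5b) and Ccnh (10 to 56 and 14 to 56). The same holds for Ell3 (0 to 72 and 18 to 83) and for Polr2l with Kdm5b (0 to 38).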
